A study of Mus musculus with 22 samples.

Results

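The VEGF ligands and receptors are 8 of the 55376 genes counted in each library, and they were chosen by name. The ligands are Vegfa, Vegfb, Vegfc, Vegfd and Pgf, and the receptors are Kdr, Flt1 and Flt4. All 8 were listed in every count table. RNA was measured in cells sorted from mouse embryos at stage E12.5. Endothelial cells (EC), which line blood vessels, were sorted by a Kdr::Cherry reporter, and motor neurons (MN), which send axons from the cord to muscle, by an ISL1::GFP reporter. In the knockout series, Plxnd1-KO and WT embryos gave EC and MN from spinal cord with the surrounding meninges, in 3 batches per group as labelled. Plxnd1 encodes a receptor for semaphorins, and which part of the gene was deleted is not given in the sources used here. In the regional series, EC of WT embryos came from the spinal cord tissue or from the meninges, in 5 batches each. Spinal batches 1 to 3 held ventral cord, and batches 4 and 5 held whole cord. Embryos were pooled by genotype, and nothing in the labels says that batches were separate litters, so the p-values rest on the spread between such pools, which may be technical.

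VEGF-A is the main growth factor that makes vessels sprout, and it acts mostly through the receptor tyrosine kinase VEGFR2, the product of Kdr. VEGFR1, the product of Flt1, binds VEGF-A more tightly but signals weakly, and a soluble form of it takes up ligand. VEGF-B and placental growth factor (Pgf) bind VEGFR1 only. VEGF-C and VEGF-D act mainly through VEGFR3, the product of Flt4, which is known for lymphatic growth and is also present on sprouting blood vessels of the embryo. In the embryonic nervous system, vessels grow from a plexus around the cord into the cord tissue, and VEGF-A made by neural cells is known to direct that growth.

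Levels are given as CPM, counts per 1000000 of the scaled library size. Counts summed all exons of a gene, so the soluble and membrane forms of Flt1, or the isoforms of Vegfa, cannot be told apart. The table labelled WT EC batch 2 held the same count as KO EC batch 1 in all 55376 genes, while the next closest 2 tables differed in 24532 genes. It was left out, which leaves 21 of 22 libraries and 2 in WT EC. The 11 libraries used of the knockout series held 20680902 to 27035395 counts each, and the 10 regional libraries 15685784 to 21493255. Plxnd1 was at 28.9, 15.4 and 18.7 CPM in KO EC, against 213 and 175 CPM in WT EC. It was at 1.79, 0.646 and 0.771 CPM in KO MN, against 12.1, 5.14 and 7.80 CPM in WT MN. Every KO library thus lay below every WT library of its cell type. All 12 pan-endothelial markers were higher and all 9 motor neuron markers were lower in EC than in MN in both genotypes. Isl1, whose reporter chose the MN, is 1 of these 9. The EC libraries also held markers of other cells. The summed level of 7 mesenchymal markers was 8759 to 10403 CPM in KO EC and 8628 to 8883 CPM in WT EC, above the sum of the 12 pan-endothelial markers, which was 618 to 1089 CPM in KO EC and 892 to 1290 CPM in WT EC.

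Promoter sequences are shown for Vegfa, Vegfd and the 3 receptors, because these 5 genes were called between spinal and meningeal EC. RefSeq (GRCm38.p6) gave windows of 300 bases, from 250 before to 50 after an annotated start, for all 8 members, with 10 windows in all. The windows shown are chr17:46032328-46032627 for Vegfa, chr5:75978406-75978705 for Kdr and chr5:147725962-147726261 for Flt1, all on the minus strand, and chrX:164373272-164373571 for Vegfd and chr11:49609429-49609728 for Flt4 on the plus strand. Capitals mark any match on either strand to the 4 motifs searched, which were the Sp1 box GGGCGG, the ETS core CCGGAA, the hypoxia response core ACGTG and the TATA box TATAAA.
Vegfa: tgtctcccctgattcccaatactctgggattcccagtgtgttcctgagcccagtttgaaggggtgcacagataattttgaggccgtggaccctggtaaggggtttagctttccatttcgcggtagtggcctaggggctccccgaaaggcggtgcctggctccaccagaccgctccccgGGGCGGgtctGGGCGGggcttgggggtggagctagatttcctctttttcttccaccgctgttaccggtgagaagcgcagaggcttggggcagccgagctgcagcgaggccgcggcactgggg
Vegfd: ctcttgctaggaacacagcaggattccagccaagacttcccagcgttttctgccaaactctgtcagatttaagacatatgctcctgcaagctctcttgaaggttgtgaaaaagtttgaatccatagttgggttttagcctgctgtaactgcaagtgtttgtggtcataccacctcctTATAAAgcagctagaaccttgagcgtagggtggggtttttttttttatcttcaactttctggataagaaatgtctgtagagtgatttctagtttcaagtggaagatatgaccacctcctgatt
Kdr: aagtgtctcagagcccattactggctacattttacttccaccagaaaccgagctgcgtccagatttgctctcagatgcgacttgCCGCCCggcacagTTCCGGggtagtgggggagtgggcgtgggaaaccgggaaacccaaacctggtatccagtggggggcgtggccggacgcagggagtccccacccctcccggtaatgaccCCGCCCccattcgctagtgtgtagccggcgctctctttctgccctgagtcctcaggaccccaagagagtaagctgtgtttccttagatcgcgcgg
Flt1: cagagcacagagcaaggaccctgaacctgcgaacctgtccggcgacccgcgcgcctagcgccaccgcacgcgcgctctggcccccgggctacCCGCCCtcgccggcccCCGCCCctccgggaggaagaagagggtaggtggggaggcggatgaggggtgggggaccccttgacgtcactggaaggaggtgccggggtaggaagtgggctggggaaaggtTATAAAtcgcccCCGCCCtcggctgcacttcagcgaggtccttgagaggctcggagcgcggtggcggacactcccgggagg
Flt4: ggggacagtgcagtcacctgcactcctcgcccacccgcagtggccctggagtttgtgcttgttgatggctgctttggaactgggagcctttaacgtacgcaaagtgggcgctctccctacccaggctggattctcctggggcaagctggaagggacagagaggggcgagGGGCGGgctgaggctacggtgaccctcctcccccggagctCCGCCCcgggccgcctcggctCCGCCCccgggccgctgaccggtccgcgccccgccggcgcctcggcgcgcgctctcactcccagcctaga

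The Sp1 box was the motif most often found. It was in 8 of the 10 member windows and in 7 of the 8 genes, all but Vegfd, while 35.6% of 32817 mouse promoter windows of the same length held it. The ETS core, the motif bound by a family of factors active in endothelial cells, was found only in the Kdr window among the members, beginning 153 bases before the start on the minus strand. It was in 14.9% of all windows. TATAAA lay 31 bases before the start of Flt1 and 73 bases before that of Vegfd, and 13.6% of all windows held it. ACGTG, present in 19.6% of all windows, matched only the other Vegfa window, at 211 bases before its start. No match to 1 motif overlapped a match to another.

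Per kilobase of exon, the order of the members differed between the groups. Exon length here covers all annotated exons of a gene, which 1 transcript need not carry in full. The order of genes and their shares are therefore rough. In GRCm38, Vegfa lies at chr17:46016993-46032369 (minus strand), Vegfb at chr19:6982473-6987651 (minus), Vegfc at chr8:54077606-54187096 (plus), Vegfd at chrX:164373378-164402650 (plus) and Pgf at chr12:85166635-85177790 (minus). Kdr lies at chr5:75932827-75978458 and Flt1 at chr5:147561604-147726011 (both minus), and Flt4 at chr11:49609263-49652739 (plus). Exon length was 3523 bases for Vegfa, 1281 for Vegfb, 2449 for Vegfc, 2049 for Vegfd, 2080 for Pgf, 5924 for Kdr, 10961 for Flt1 and 6255 for Flt4, and no exon base of a member was shared with another gene. In the EC of the knockout series, Vegfa led with 52.5 ± 6.10 CPM per kb in KO EC (SD, n = 3) and 55.3 ± 1.08 CPM per kb in WT EC (SD, n = 2), followed by Kdr with 26.1 ± 8.40 in KO EC and 36.0 ± 12.4 in WT EC. Vegfa and Kdr did not overlap in range, whereas Kdr and Vegfb did in KO EC. In MN, Vegfa and Vegfb led in each genotype, with 40.0 ± 4.53 and 19.9 ± 1.87 CPM per kb in KO MN (SD, n = 3). No receptor averaged above 0.770 CPM per kb in either MN group.

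Spinal EC had the 3 receptors on top. Kdr averaged 126 ± 34.3 CPM per kb, Flt1 27.4 ± 7.24 and Flt4 17.4 ± 5.52 in these libraries (SD, n = 5), and the ranges of Flt1, Flt4 and Vegfb overlapped in turn. In meningeal EC, Kdr averaged 44.4 ± 16.0 and Vegfa 31.6 ± 3.91 CPM per kb (SD, n = 5), with overlapping ranges, and Vegfb followed at 19.0 ± 1.81. The lowest member was Vegfd in all 6 groups, at 0.209 ± 0.124 CPM per kb in spinal EC and 2.95 ± 0.336 in meningeal EC.

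**Figure D1:**
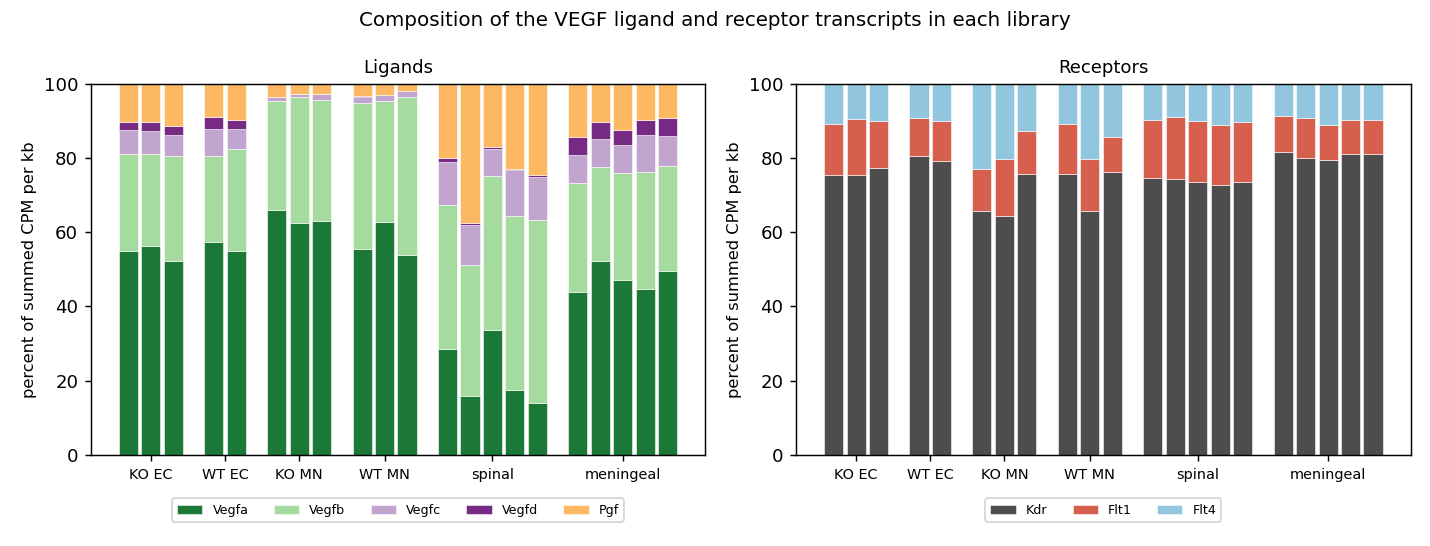
Share of each ligand in the summed ligand level (left) and of each receptor in the summed receptor level (right), in percent of CPM per kb, with 1 bar per library grouped by cell type, genotype and region. Vegfa made up 22% of the ligand sum on average in spinal EC and 47.5% in meningeal EC, and Flt1 made up 16.1% of the receptor sum in spinal EC and 9.59% in meningeal EC.

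The stacked shares show the mix in each library. Vegfa made up 22% ± 8.68 of the ligand sum in spinal EC and 47.5% ± 3.40 in meningeal EC (SD, n = 5 each). Vegfb and Pgf filled more of the sum in spinal EC, with 42.3 ± 5.64% and 24.5 ± 7.90%, than in meningeal EC, with 28.7 ± 2.12% and 11.3 ± 2.12%. In MN, Vegfa and Vegfb together left at most 3.55% to Pgf in any library. The summed receptors reached 171 ± 46.9 CPM per kb in spinal EC, against 55.1 ± 19.5 in meningeal EC, while the summed ligands were at 39.6 ± 5.38 and 66.3 ± 4.94 CPM per kb in spinal and meningeal EC.

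The comparison of EC with MN asks which of the sorted cells carry each ligand and receptor. These EC came from cord with meninges, so a higher level in EC cannot be placed in the cord itself. Flt1 and Flt4 were 18.6-fold to 41.5-fold higher in EC, Vegfc, Vegfd and Pgf were higher by 5.31-fold or more, and Vegfa differed least among those called in both genotypes. Of the 7 members other than Kdr, 7 were higher in EC in KO and 6 in WT by the edgeR quasi-likelihood test, while 35.3% of all 19266 genes tested were called higher in KO and 33.8% in WT (68.8% and 64.8% in either direction). The median log2 fold change of these 7 was that of Vegfc, 3.14 in KO and 2.85 in WT, against 0.02 over all genes in each. All 7 had ranges that did not overlap between EC and MN in both genotypes, as did 72.3% of all genes in KO and 79% in WT. In sorted bulk samples, fewer cells of a type and less RNA per cell cannot be told apart.

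**Figure D2:**
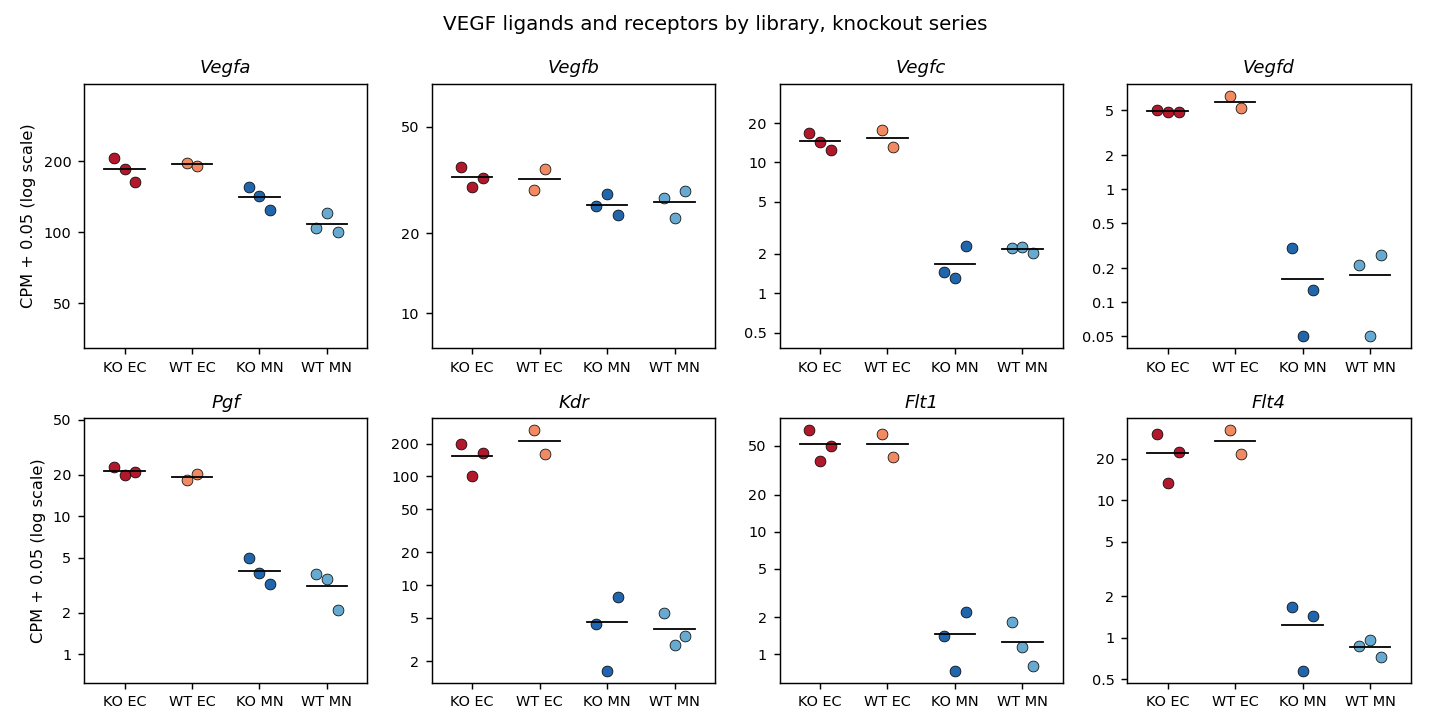
CPM + 0.05 (log axis) of each member in every library of the knockout series, with groups in the order KO EC, WT EC, KO MN and WT MN, points for libraries and lines for means on the plotted axis. All receptors, Vegfc, Vegfd and Pgf lie far apart between EC and MN, with Flt1 at 37.4 CPM or more in EC and at 2.16 CPM or less in MN.

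The receptors were far higher in the EC libraries. Kdr had 199, 101 and 164 CPM in KO EC, against 4.36, 1.57 and 7.75 CPM in KO MN. In WT it had 265 and 161 CPM in EC, against 5.45, 2.79 and 3.35 CPM in MN. The Kdr reporter chose the EC, so its log2 difference of 5.08 in KO and 5.78 in WT is given without a test. Flt1 had 66.4, 37.4 and 49.9 CPM in KO EC, against 1.37, 0.686 and 2.16 CPM in KO MN, and 62.2 and 40.1 CPM in WT EC, against 1.80, 1.11 and 0.754 CPM in WT MN. Its log2 fold change was 5.18 ± 0.42 in KO (SE; edgeR adjusted p = 1.70e-06) and 5.38 ± 0.44 in WT (edgeR adjusted p = 2.62e-06). Flt4 had 30.5, 13.3 and 22.3 CPM in KO EC, against 1.62, 0.525 and 1.39 CPM in KO MN, and 32.1 and 21.7 CPM in WT EC, against 0.819, 0.913 and 0.671 CPM in WT MN. The Flt4 difference was 4.22 ± 0.41 in KO and 5.07 ± 0.45 in WT on the log2 scale, and no MN library came near an EC library. The low receptor levels in MN stood beside a summed pan-endothelial marker level of 22.4 to 47.3 CPM in KO MN and 24.4 to 41.2 CPM in WT MN, and how much of the receptor RNA came with it was not tested.

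Vegfa was the ligand with the highest CPM in both cell types. It had 206, 185 and 164 CPM in KO EC, against 156, 142 and 124 CPM in KO MN. In WT it had 198 and 192 CPM in EC, against 104, 121 and 100.3 CPM in MN. EC lay above MN in both genotypes, by a log2 fold change of 0.40 ± 0.12 in KO (SE; edgeR adjusted p = 0.0107) and 0.84 ± 0.13 in WT (edgeR adjusted p = 0.000178). Vegfb, whose product is known for its role in heart and muscle, had 35.5, 29.8 and 32.1 CPM in KO EC, against 25.2, 28.0 and 23.3 CPM in KO MN, and 28.9 and 34.8 CPM in WT EC, against 27.1, 22.7 and 28.8 CPM in WT MN. The lowest WT EC library barely cleared the highest WT MN library. The log2 difference was 0.35 ± 0.13 in KO (edgeR adjusted p = 0.0305) and 0.28 ± 0.14 in WT (edgeR adjusted p = 0.0999). The KO call was lost without a filter (edgeR adjusted p = 0.0583). It was also lost without KO EC batch 1 or 3 (adjusted p = 0.101 and 0.0525) or KO MN batch 1 or 3 (adjusted p = 0.0732 and 0.102).

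The lymphatic ligands and Pgf were low in MN. Vegfc had 16.7, 14.3 and 12.4 CPM in KO EC, against 1.41, 1.25 and 2.24 CPM in KO MN, and 17.5 and 13.0 CPM in WT EC, against 2.17, 2.21 and 1.97 CPM in WT MN. It was 8.82-fold higher in KO and 7.19-fold higher in WT EC (edgeR adjusted p = 1.16e-06 and 4.04e-06). Pgf had 22.7, 19.9 and 20.9 CPM in KO EC, against 4.95, 3.83 and 3.16 CPM in KO MN, and 18.2 and 20.2 CPM in WT EC, against 3.77, 3.46 and 2.05 CPM in WT MN. That is a log2 difference of 2.41 ± 0.23 in KO and 2.63 ± 0.25 in WT, larger than the spread within each group. Vegfd had 4.97, 4.72 and 4.78 CPM in KO EC, and in KO MN only 6, 0 and 2 counts. In WT it had 6.65 and 5.12 CPM in EC, and 4, 0 and 5 counts in MN. As a ratio of summed counts scaled by depth, EC exceeded MN 45.1-fold in KO (95% counting interval 22.6 to 105) and 45.2-fold in WT (23.5 to 99.7). These intervals cover counting error only.

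Markers of several other cell types were also higher in EC. All 7 mesenchymal, all 8 pericyte and smooth muscle, all 7 macrophage and microglia and all 7 erythroid markers were higher in EC than in MN in both genotypes, as were 6 of 7 neural progenitor markers. Of 5 Schwann and neural crest markers, 4 were higher in KO and 0 in WT by edgeR. The erythroid sum was 8675 to 18854 CPM in KO EC and 11083 to 20712 CPM in WT EC, against 44.2 to 124 CPM in KO MN and 48.1 to 124 CPM in WT MN. The macrophage and microglia sum was 666 to 905 CPM in KO EC and 787 to 841 CPM in WT EC, against at most 19.4 CPM in MN. The mesenchymal sum was 72.4 to 122 CPM in KO MN and 59.5 to 155 CPM in WT MN, and no mesenchymal marker was at 0 in any EC or MN library. The part of these cells in the levels of Vegfa, Vegfc, Vegfd and Pgf in EC was not tested.

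Lists of genes around the pathway were read in the same comparison, where 35.3% of all genes were called higher and 33.5% lower in KO, and 33.8% higher and 31% lower in WT. Of 12 co-receptors and receptor partners, 8 were higher and 2 lower in EC in both genotypes, with a median log2 difference of 1.64 in KO and 1.36 in WT. Those with the smallest p were Myof, a membrane repair gene (6.17 in KO and 5.40 in WT), Itgav, an integrin gene (4.16 and 4.01), Hspg2, which encodes the basement membrane proteoglycan perlecan (4.77 and 4.43), and Efnb2, the arterial ephrin gene (1.61 and 1.49). Nrp2, a co-receptor for VEGF-C and semaphorins, was lower in EC, at 144 ± 26.5 CPM in KO EC and 459 ± 121 CPM in KO MN (SD, n = 3 each). Nrp1, the co-receptor for VEGF-A, did not pass the test, with log2 differences of 0.04 in KO and 0.06 in WT. Among 20 genes that respond to VEGF in endothelial cells, 17 were higher and 2 lower in KO, and 16 were higher and 2 lower in WT, with medians of 3.74 and 3.80. Igfbp3, which binds insulin-like growth factors, had a log2 difference of 3.68 in KO and 3.34 in WT, and the endothelial transcription factor gene Ets1 one of 5.62 in KO and 5.72 in WT. Plau, the urokinase gene (4.39 in KO and 4.12 in WT), and Angpt2, the angiopoietin-2 gene (3.83 and 4.0), were higher too. The 28 signalling genes tested split evenly, with 13 higher and 13 lower in KO, and 12 each way in WT, shares not far above those of all genes. Nfatc1, a calcium-regulated transcription factor gene, was higher in EC by 5.12 in KO, and Ppp3ca, a subunit of the phosphatase calcineurin, had -1.39. Hypoxia regulators split likewise, with 4 higher and 4 lower of 9 in both genotypes. Epas1, which encodes the hypoxia factor HIF-2α, was higher by 5.52 in KO and 5.64 in WT, and Hif3a and Arnt, genes of its factor family and of its partner, by 4.47 and 1.51 in KO. Vhl, whose product marks these factors for degradation, was lower (-0.57 in KO and -0.59 in WT). Hif1a did not pass (0.20 in KO and 0.12 in WT), except in KO with batch as a block (0.20, edgeR adjusted p = 0.0489). Of 9 genes of VEGF-C activation and lymphatic identity, 7 were higher and none lower in EC. Ccbe1, whose product helps to activate VEGF-C, was higher by 4.72 in KO and 5.09 in WT, and Lyve1, a hyaluronan receptor gene of lymphatic vessels and some macrophages, by 7.42 and 6.85. Prox1, the transcription factor gene of lymphatic fate, did not pass (-0.70 in KO and -0.84 in WT), but passed as lower in EC with batch as a block (-0.73 and -1.10, edgeR adjusted p = 0.00362 and 0.00102).

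The comparison of KO with WT within each cell type asks whether loss of the semaphorin receptor changed the VEGF system. No member passed the edgeR test in EC (0 of 8) or in MN (0 of 7, as Vegfd was too low in MN to be tested). Across all genes, 0% of 18209 were called in EC and 0.012% of 16695, or 2 genes, in MN. At an unadjusted p under 0.05 the same tests gave 431 of 18209 and 190 of 16695 genes, in each a share below 0.05. DESeq2 called 34 genes in EC and 4 in MN. With batch as a block, edgeR called 180 genes in EC (0.989%) and 6 in MN (0.0359%), and no member among them. The block left 1 residual degree of freedom in EC, where WT had only batches 1 and 3, and 2 in MN. Plxnd1 itself had a log2 fold change of -3.20 in EC without passing the unpaired test (edgeR adjusted p = 0.161), and one of -3.04 with the block, where it passed (edgeR adjusted p = 5.52e-15). In MN it had a log2 fold change of -2.97 (edgeR adjusted p = 0.80), and with the block -3.0 (edgeR adjusted p = 1.35e-04). The unpaired test thus did not call even the deleted gene.

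**Figure D3:**
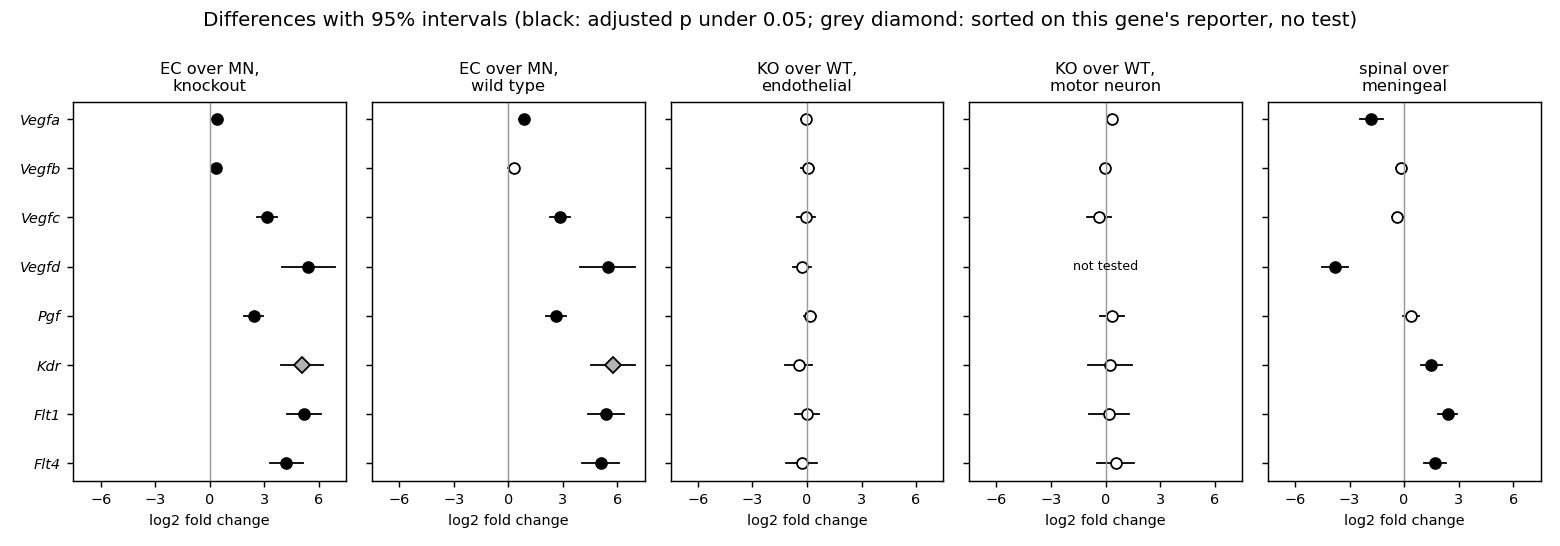
Log2 fold changes of the 8 members with 95% intervals (edgeR) in 5 comparisons, which are EC over MN in KO and in WT, KO over WT in EC and in MN, and spinal over meningeal EC. Black circles passed an adjusted p of 0.05, open circles did not, and grey diamonds mark Kdr where its reporter chose the cells. The intervals of KO over WT in EC all include 0, and the spinal over meningeal values run from -3.79 for Vegfd to 2.40 for Flt1.

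In EC, the receptor levels of KO and WT overlapped. Kdr had 199, 101 and 164 CPM in KO EC, against 265 and 161 CPM in WT EC, a log2 fold change of -0.46 with a 95% interval of -1.22 to 0.30. The low KO value was that of batch 2, the batch with no WT partner, and within batches 1 and 3 the log2 differences were -0.41 and 0.02. For Flt1 the log2 fold change was 0.01, with a 95% interval of -0.66 to 0.68, and for Flt4 it was -0.29, with a 95% interval of -1.13 to 0.55. The summed pan-endothelial markers were 1089, 618 and 853 CPM in KO EC, against 1290 and 892 CPM in WT EC, so KO batch 2 was also lowest in these. None of the 12 pan-endothelial markers was called in this comparison, and their median log2 fold change was -0.43. When libraries were scaled by these markers, the median over all genes moved to 0.36, Flt4 turned to 0.035, and no member was called.

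The ligands in EC were as close. Vegfa was at 206, 185 and 164 CPM in KO EC, against 198 and 192 CPM in WT EC, with a log2 fold change of -0.07 (95% interval -0.35 to 0.21). For Vegfb the log2 fold change was 0.03, for Vegfc -0.07 and for Pgf 0.14. Vegfd was the member whose ranges did not overlap, with 4.72 to 4.97 CPM in KO EC and 5.12 to 6.65 CPM in WT EC. Its log2 fold change was -0.28 (95% interval -0.79 to 0.23), and 13.8% of all genes had ranges that did not overlap. Under scaling by the pan-endothelial markers, Vegfa, Vegfc and Vegfd had values above 0 (0.29, 0.32 and 0.12). All of these lay below the median over all genes, which this scaling moved to 0.36. The cartilage marker sum was also apart, at 514 to 707 CPM in KO EC and 305 to 485 CPM in WT EC, and its part in these values was not tested.

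In MN, Vegfa was the member that stood furthest from 0 relative to its error. It had 156, 142 and 124 CPM in KO MN, against 104, 121 and 100.3 CPM in WT MN, so that all 3 KO libraries lay above all 3 WT libraries, as was true in either direction of 4.86% of all genes. The log2 fold change was 0.37 ± 0.11 (SE), or 1.30-fold, with an unadjusted p of 0.00801 and an edgeR adjusted p of 0.9997. It was 0.58, 0.23 and 0.31 in batches 1, 2 and 3. With batch as a block it was 0.37 ± 0.07 (edgeR adjusted p = 0.194), which did not pass. The library KO MN batch 1, which had the highest Vegfa of the MN, also had 598 CPM of 5 liver markers, while the other MN libraries had at most 2.16 CPM. Leaving out each library in turn gave values of 0.29 to 0.46. The other 6 members tested in MN had log2 fold changes of -0.37 (Vegfc) to 0.56 (Flt4), none of which passed.

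The test of whether the KO effect differed between EC and MN called no member and 0 of 19266 genes, and DESeq2 called 1 gene. At an unadjusted p under 0.05 there were 352 genes, also a share below 0.05. For Vegfa, the KO effect in EC minus that in MN was -0.45 ± 0.17 on the log2 scale (SE; unadjusted p = 0.0256, edgeR adjusted p = 1). The values of the other members ran from -0.85 for Flt4 to 0.29 for Vegfc.

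None of the genes in the 5 pathway lists was called between KO and WT in either cell type by the unpaired test. With batch as a block, 2 of the 78 list genes tested in EC were called higher in KO, against 0.989% of all genes in either direction. They were Hspg2 (0.45, edgeR adjusted p = 0.0200), and Apln, a peptide ligand made by sprouting tip cells (0.69, edgeR adjusted p = 0.00833). In the same fit 4 of 5 cartilage markers were called higher in KO EC (median 0.74), as was 1 marker each of Schwann, pericyte and neural progenitor cells, while 2 of 7 erythroid and 1 of 12 pan-endothelial markers were called lower. Their part in both calls was not tested. That fit left 1 residual degree of freedom. The median log2 fold changes of the lists in EC lay between -0.03 and 0.29, against -0.01 over all genes. The largest of these was that of the VEGF-C and lymphatic list, where Lyve1 had 163 ± 15.7 CPM in KO EC (SD, n = 3) and 125 ± 10.9 CPM in WT EC (SD, n = 2). Its log2 fold change of 0.40 did not pass, with or without the block (edgeR adjusted p = 0.147 with it). The genes with the smallest p in the other lists had log2 fold changes of 0.32 (Myof), 0.68 (Hspb1, a small heat shock protein gene), -0.39 (Angpt2) and 0.25 (Hif3a) in EC. In MN they had 0.89 (Ptprb), -0.13 (Prkca), 1.15 (Apln), -0.07 (Egln2) and 0.28 (Ccbe1), and none passed.

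The regional comparison asks how EC that have entered the cord differ from those left in the meninges. All 3 receptors were higher in spinal EC, Flt1 most (5.27-fold), and Vegfa and Vegfd were lower, at 0.286 and 0.0725 of the meningeal level. Vegfb, Vegfc and Pgf did not pass the test. Of the 8 members 5 were called by the edgeR quasi-likelihood test, against 47.8% of the 16213 genes tested, of which 24.8% were called higher and 23% lower in spinal EC. The same 5 members had ranges that did not overlap, as had 36.5% of all genes. The median over all genes was 0.01.

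**Figure D4:**
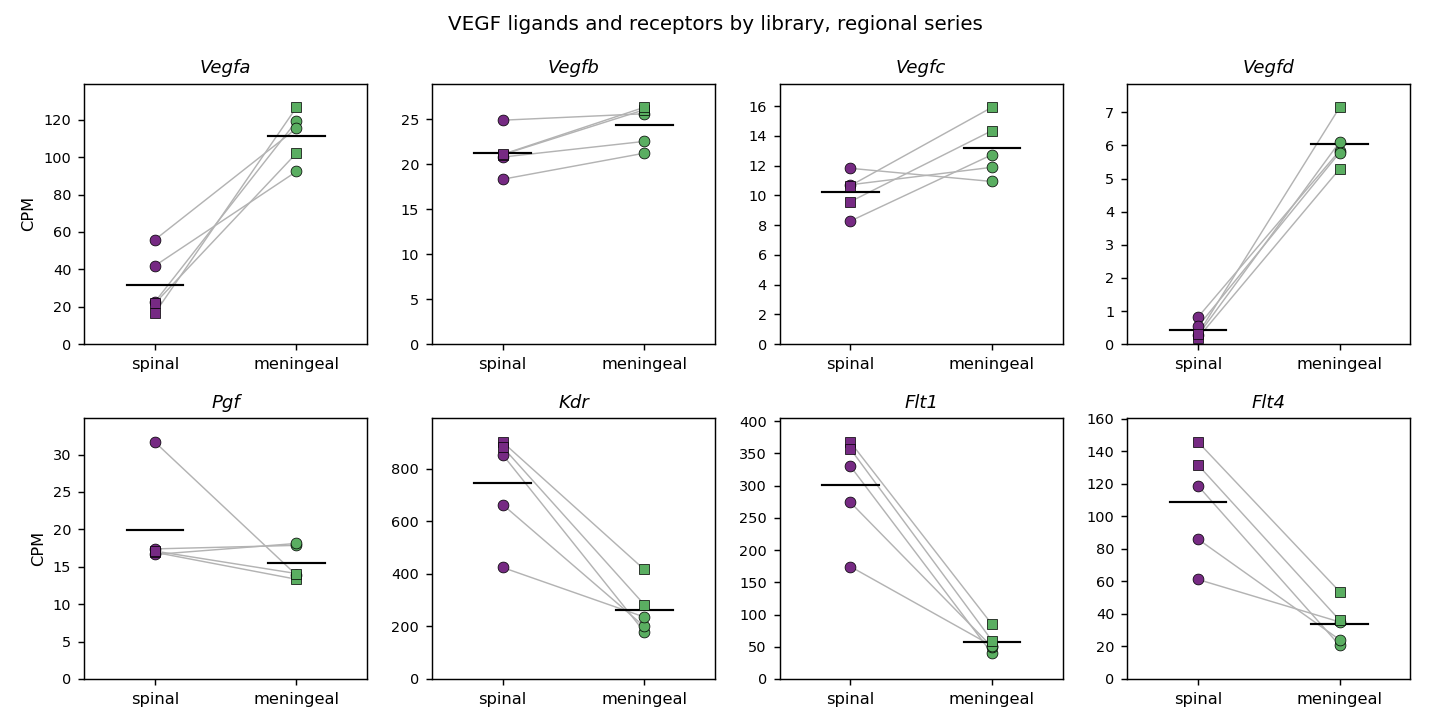
CPM (linear axis from 0) of each member in spinal and meningeal EC, with circles for batches 1 to 3, squares for batches 4 and 5, grey lines joining libraries of the same batch and black bars for means. Kdr, Flt1 and Flt4 lie higher in spinal EC in all 5 batches, and Vegfa and Vegfd lie lower in all 5.

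Kdr had 854, 664, 425, 902 and 884 CPM in spinal EC of batches 1 to 5, against 179.9, 200.0, 236, 417 and 283 CPM in meningeal EC. Spinal batch 3 was low and meningeal batch 4 high, and these came close to each other, at 425 and 417 CPM, without crossing. The log2 fold change was 1.50 ± 0.26 (SE; edgeR adjusted p = 0.000413). Both groups were sorted by the Kdr reporter, so Kdr was part of the gate on each side. Flt1 had 330.2, 274, 174, 367 and 357 CPM in spinal EC, against 39.6, 49.8, 51.4, 84.7 and 59.6 CPM in meningeal EC. The lowest spinal library was above the highest meningeal one by a wide margin, with a log2 fold change of 2.40 ± 0.24 (SE; edgeR adjusted p = 5.04e-06). Flt4 had 119, 86.0, 61.2, 146 and 132 CPM in spinal EC, against 20.6, 24.1, 35.1, 53.7 and 36.1 CPM in meningeal EC. It did not overlap either, with 1.68 ± 0.28 (SE; edgeR adjusted p = 0.000331).

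The spinal libraries were richer in endothelial markers as a whole. The 12 pan-endothelial markers summed to 3212, 2708, 1758, 3704 and 3560 CPM in spinal EC, against 1083, 1082, 1276, 1974 and 1439 CPM in meningeal EC, and 9 of the 12 were called higher, with a median log2 fold change of 1.25. The 7 mesenchymal markers were all lower in spinal EC, with sums of 796 to 1437 CPM, against 8620 to 11583 CPM in meningeal EC. The receptors were therefore also set against the mean log2 level of the 12 pan-endothelial markers of the same library, none of which is a member.

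Relative to these markers, Flt1 was at 0.54 ± 0.03 on the log2 scale in spinal EC and -0.74 ± 0.13 in meningeal EC (SD, n = 5 each), a difference of 1.28 or 2.42-fold. The 5 differences within batches ran from 1.08 to 1.49. Kdr differed by 0.40 (1.32-fold) and Flt4 by 0.57 (1.49-fold) on this scale. For each of the 3 receptors the 2 regions did not overlap, and the exact two-sided permutation test of the libraries gave p = 0.00794, the smallest it can give, also after adjustment over the 3 receptors. This test ignores batch. Sign flips of the 5 batch differences, which keep the pairing, gave an exact p of 0.0625 for each receptor, the smallest they can give, so the call was lost. When all libraries were scaled by these markers in edgeR, Flt1 and Flt4 still passed (1.27, adjusted p = 0.000224, and 0.57, adjusted p = 0.0288), while Kdr did not (0.40, adjusted p = 0.113). This scaling moved the median over all genes to -1.09 and the share of calls that were higher in spinal EC to 9.17%, against 51.8% with the usual scaling. All 3 receptors were above the median over all genes under both scalings. Reading values against that median largely undoes the marker scaling, so this is not separate support, and the lost call of Kdr stands.

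The ratio of Flt1 to Kdr does not depend on the scaling of libraries. Per kb it was 0.209, 0.223, 0.222, 0.220 and 0.218 in spinal EC, against 0.119, 0.135, 0.118, 0.110 and 0.114 in meningeal EC. Every spinal library lay above every meningeal one, by 0.88 on the log2 scale or 1.84-fold (exact two-sided permutation p = 0.00794, the smallest possible). With the batches kept paired the exact sign-flip p was 0.0625, again the smallest possible, which does not pass. The log2 differences within batches 1 to 5 were 0.81, 0.73, 0.91, 1.0 and 0.94. A ratio within a library shows that the 2 genes differed unequally, and not which of them moved.

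After these values had been seen, the ratio was also taken in the knockout series. It was 0.181, 0.201 and 0.165 in KO EC, against 0.127 and 0.134 in WT EC. The 3 KO libraries lay above the 2 WT libraries, by 0.47 on the log2 scale or 1.39-fold. The exact two-sided permutation test gave p = 0.1, the smallest that 10 splits allow, and 0.2 after adjustment over 4 values, so this design cannot pass 0.05. Relative to the pan-endothelial markers, Flt1 was at -0.26 ± 0.02 in KO EC (SD, n = 3) and -0.62 ± 0.04 in WT EC (SD, n = 2), again with no overlap (exact permutation p = 0.1, adjusted 0.2). Kdr differed by -0.11 and Flt4 by 0.03 on that scale, with overlapping libraries (exact permutation p = 0.4 and 1). In batches 1 and 3, which have a library of each genotype, the log2 differences of the ratio were 0.51 and 0.29.

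**Figure D5:**
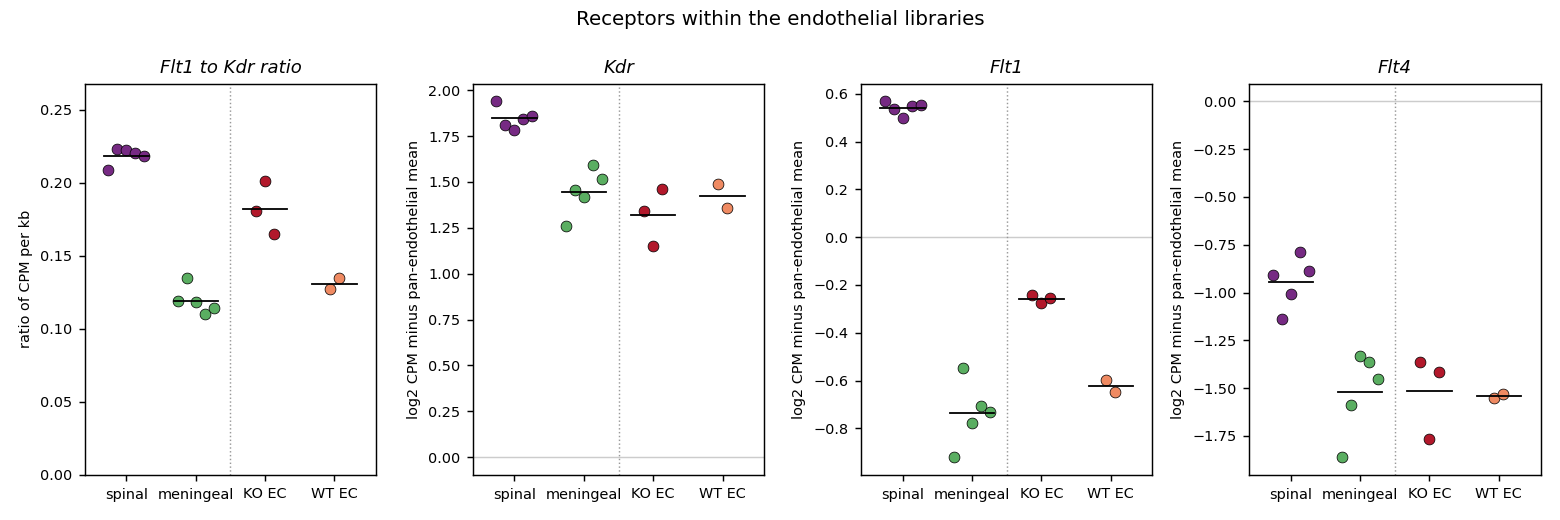
From left to right, the ratio of Flt1 to Kdr (CPM per kb, axis from 0) and the log2 CPM of Kdr, Flt1 and Flt4 minus the mean log2 CPM of 12 pan-endothelial markers, in spinal, meningeal, KO and WT EC, with points for libraries and lines for means. The dotted line separates the 2 series, which are not compared with each other. The spinal ratios lie at 0.209 to 0.223 and the meningeal ones at 0.110 to 0.135.

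Among the ligands, Vegfa had 41.9, 22.6, 55.8, 21.8 and 16.6 CPM in spinal EC, against 92.4, 119, 115, 102 and 127 CPM in meningeal EC. All spinal libraries were below all meningeal ones, with a log2 fold change of -1.81 ± 0.29 (SE; edgeR adjusted p = 0.000230). Vegfd had 0.820, 0.273, 0.540, 0.196 and 0.311 CPM in spinal EC, against 5.85, 6.11, 5.79, 5.29 and 7.15 CPM in meningeal EC. The spinal values rest on 14, 5, 12, 3 and 6 counts. As a ratio of summed counts scaled by depth, spinal EC had 0.0721 of the meningeal level (95% counting interval 0.0509 to 0.0994), and the edgeR log2 fold change was -3.79 ± 0.32 (adjusted p = 1.58e-06). The mesenchymal marker sum was lower in all 5 spinal libraries too, and its part in Vegfa and Vegfd was not tested.

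The other ligands overlapped between regions. Vegfc had 11.8, 10.7, 8.28, 10.7 and 9.59 CPM in spinal EC, against 10.9, 11.9, 12.7, 15.9 and 14.4 CPM in meningeal EC. Its log2 fold change of -0.37 ± 0.15 narrowly missed the threshold (SE; edgeR adjusted p = 0.0538). It passed in 8 alternatives. These were DESeq2 (adjusted p = 0.0245), ratios to the median library, a filter at 5 CPM, and fits without spinal batch 1 or meningeal batch 1 or 2 (edgeR adjusted p = 0.0312, 0.0222 and 0.0338). They also included batches 4 and 5 alone (-0.60) and scaling by the pan-endothelial markers (-1.46, against a median of -1.09 over all genes). Vegfb had 20.8, 18.3, 24.9, 21.1 and 21.1 CPM in spinal EC, against 22.5, 21.2, 25.6, 26.0 and 26.3 CPM in meningeal EC (log2 fold change -0.20, 95% interval -0.45 to 0.05). It passed as lower in batches 4 and 5 alone (-0.33, edgeR adjusted p = 0.0159) and under scaling by the pan-endothelial markers (-1.25, edgeR adjusted p = 0.000941). Pgf had 17.4, 31.7, 16.6, 16.9 and 17.1 CPM in spinal EC, against 17.9, 13.9, 18.1, 13.3 and 14.1 CPM in meningeal EC (0.37, 95% interval -0.06 to 0.79). Spinal batch 2 was alone in its high Pgf, and it also had the highest pericyte and smooth muscle marker sum, 9082 CPM against 3624 to 4842 CPM in the other spinal and 1383 to 1839 CPM in the meningeal libraries. The part of these cells was not tested. Under scaling by the pan-endothelial markers, Pgf turned to -0.75 (edgeR adjusted p = 0.0415), below 0 but above the median of all genes.

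The size of the Vegfa difference varied with the batch. It was -1.14, -2.40 and -1.05 on the log2 scale in batches 1, 2 and 3, where the cord was ventral, and -2.22 and -2.93 in batches 4 and 5, where it was whole. Within batches 1 to 3 alone, the edgeR estimate was -1.46 (adjusted p = 0.00532), and within batches 4 and 5 it was -2.60 (adjusted p = 1.64e-08). The regional difference in batches 1 to 3 minus that in batches 4 and 5 was 1.17 ± 0.42 (SE; unadjusted p = 0.0190, edgeR adjusted p = 0.164). Without spinal batch 2 it reached an adjusted p of 0.0133, and with no filter 2.11e-05. No member was called in this test, as against 0.547% of 17901 genes (98 genes, 3582 at an unadjusted p under 0.05), and DESeq2 called no member either. The 5 members called between regions kept their direction and call within both sets of batches. Dissection and batch cannot be told apart here.

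Of the 20 VEGF-responsive genes in the pathway lists, 12 were higher and 2 lower in spinal EC (all genes: 24.8% higher and 23% lower), with a median log2 fold change of 0.95 against 0.01 over all genes. Cxcr4, a chemokine receptor of tip cells, averaged 114 ± 10.5 CPM in spinal EC and 7.99 ± 2.23 CPM in meningeal EC (SD, n = 5 each; log2 fold change 3.83). Dll4, the Notch ligand of tip cells and arteries, averaged 102 ± 26.3 CPM in spinal EC and 17.9 ± 6.76 CPM in meningeal EC (2.52). Apln was higher by 2.59, and Igfbp3 was lower, with -1.63. Under scaling by the pan-endothelial markers 7 of the 20 were higher and 7 lower, with a median of -0.16 against -1.09 over all genes.

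Neural markers were also higher in spinal EC. The mesenchymal markers were lower there, with sums of 796 to 1437 CPM, against 8620 to 11583 CPM in meningeal EC. The part of either in any of the lists was not tested. All 7 pan-neuronal markers were called higher, with sums of 1031 to 2309 CPM in spinal EC, against 133 to 375 CPM in meningeal EC, and all 7 neural progenitor markers, with sums of 1003 to 1580 CPM in spinal EC, against 420.3 to 495 CPM in meningeal EC. Of 28 signalling genes 11 were higher and 2 lower in spinal EC, with a median of 0.28. Prkcb, a protein kinase C gene, was higher by 1.95 and Nos3, which encodes endothelial nitric oxide synthase, by 1.73, as were the kinase genes Fyn (0.99) and Src (0.92) and the kinase subunit gene Pik3r1 (1.12), while Mapkapk2, a kinase gene downstream of p38, was lower, with -0.38. Of 12 co-receptors and partners 2 were higher and 2 lower, with a median of 0.15. Ptprb, which encodes the phosphatase VE-PTP that acts on VEGFR2 and Tie2, averaged 251.8 ± 61.8 CPM in spinal EC and 44.8 ± 11.7 CPM in meningeal EC (2.49), and Myof was lower, with -3.03, as was Efnb2, with -0.81. Itgav was higher by 0.92. Nrp1 and Nrp2 did not pass (0.15 and -0.26). Of 9 hypoxia regulators 3 were higher and 2 lower (median 0.12), led by Epas1 with 2.33 and Egln3, a prolyl hydroxylase gene, with 1.48, while Arnt (-0.41) and Hif3a (-0.54) were lower. Hif1a did not pass (0.12).

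Genes of VEGF-C activation and lymphatic identity went both ways, with 4 of 9 higher and 4 lower and a median of 0.14. Lyve1 averaged 7.34 ± 7.65 CPM in spinal EC and 268 ± 79.7 CPM in meningeal EC (SD, n = 5 each; -5.19). Among the genes for VEGF-C processing, Adamts3 was higher by 2.93, whereas Ccbe1 (-1.37), Adamts14 (-1.51) and Pcsk5 (-1.42) were lower. Prox1, which was not called higher in EC than in MN in the knockout series, averaged 33.5 ± 8.67 CPM in spinal EC and 7.78 ± 0.98 CPM in meningeal EC (2.11). The part of neural cells in this difference was not tested. Scaling by the pan-endothelial markers left 2 of the 9 higher and 6 lower in spinal EC, 2 and 19 of the 28 signalling genes, 1 and 10 of the 12 co-receptors, and 1 and 7 of the 9 hypoxia regulators. Of all 16213 genes, 1164 were then higher and 11536 lower, so these list counts lie near the background. Cdh5 belongs to both the co-receptors and the pan-endothelial markers, so its value here was partly set by the scaling.

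The genes most like each member were found by Pearson correlation of log2 levels, over 11 libraries for 12322 genes in the knockout series and over 10 libraries for 12104 genes in the regional series. These values describe the libraries, which share cell type, region and depth. In the knockout series Kdr was most like Cldn5, a claudin gene of the barrier vessels of the brain, then Tie1 and Epas1 (r = 0.998, 0.998 and 0.997). Flt1 was nearest to Acvrl1, which encodes the endothelial receptor ALK1 (r = 0.997), and Flt4 to Slc40a1, the iron exporter gene (r = 0.994). Vegfc was nearest to Pkn3 and the endothelial adhesion gene Icam2 (r = 0.998 each), and Pgf to Pml (r = 0.996). Vegfa had a looser partner, Khk, which encodes ketohexokinase (r = 0.958), and so had Vegfb, with Eif3f (r = 0.927).

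In the regional series Kdr was most like Pecam1, the endothelial adhesion gene, and Cd93 (r = 0.996 each), and Flt1 was most like Pde8a and Adgrl4 (r = 0.996 each). Flt4 had the unnamed gene 2900026A02Rik as its nearest and Nos3 among its 3 nearest (r = 0.996 and 0.994). Vegfa ran with Cacna1g, a calcium channel gene, Col12a1, a collagen gene, and Fat2 (r = 0.997, 0.993 and 0.992). Vegfc and Pgf had nearest genes at r = 0.966 (Adgra2, a receptor of brain vessel growth) and 0.929 (Stk40). Vegfd fell under the level of 5 CPM that the search required in each series.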

How the data were processed

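RNA counts per gene were analysed for sorted mouse cells. The authors deposited raw counts of reads over exons of the GENCODE M22 basic annotation, made with featureCounts 1.6.4 per the file headers. Trimmomatic 0.39, STAR 2.5.3a and the build mm10 (GRCm38) are named in the submitters' processing notes. Per the file headers, the knockout series was counted without strand as single reads and the regional series by reverse strand as read pairs. The labels give 1 stranded kit for both, so levels were not compared between series. With 1 exception, stated in the report, all libraries were used.

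The members and lists were chosen with earlier results of these data known. Each comparison was fitted on all genes with the edgeR 4.0.16 quasi-likelihood test (R 4.3.3), TMM factors, a low-count filter (filterByExpr, 10 counts) and 0.05 as the limit for Benjamini-Hochberg adjusted p. KO and WT were fitted within each cell type, EC and MN in 1 fit of 11 libraries, and regions 5 against 5. CPM used TMM-scaled totals, and log2 levels a prior count of 2. Fits were first run on simulated counts with the same spread for every gene and no batch effect. That run checks the code and does not show the power of the tests in these data. Ratios and levels relative to the pan-endothelial markers were tested by exact permutation over libraries.

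The labels number the batches, and libraries were paired by these numbers. Deviations from group means correlated at 0.441 and 0.517 in the EC pairs, 0.379, 0.412 and 0.358 in the MN pairs and -0.273, -0.0319, 0.303, 0.169 and 0.0377 in the regional pairs. The regional values had both signs, so pairing there rests on the labels alone. Alternatives were batch as a block, DESeq2 1.42.0, ratios to the median library, no filter, 5 CPM, no prior count, subsets of batches and leaving out each library. Scaling by pan-endothelial markers and the 4 tests on KO and WT ratios were added after the data had been seen. List genes were named for the smallest p in their list, up to 4 where any passed and up to 2 otherwise. Nrp1, Nrp2 and Hif1a in all comparisons, Prox1 between EC and MN, and Nos3, Mapkapk2, Ccbe1 and Adamts3 between regions were named after their values were seen. The likeness search for Vegfb in the regional series is not reported here. The SE and intervals of fold changes were worked back from the log2 fold change and the F statistic of each edgeR test. They rest on the spread between libraries and are rough where the fold change is near 0. The intervals of the Vegfd count ratios cover counting error only.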

Additional observations from a re-analysis of the deposited data

Results flagged for a closer look

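Pgf in spinal EC of batch 2, at 31.7 CPM, lay far from the other 4 spinal libraries, which were at 16.6 to 17.4 CPM. Its gap to the nearest of them took up 0.951 of the range of the group, above the critical share of 0.71. In the same library the pericyte and smooth muscle markers summed to 9082 CPM, against 3624 to 4842 CPM in the other spinal libraries, and their part was not tested. The 8 members, the Flt1 to Kdr ratio and the relative receptor levels were checked in spinal and in meningeal EC, 24 groups in all. Of these 1 stood apart, and chance marks about 1 in 20 groups. The groups of the knockout series were too small for this check.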

How the results depend on the processing

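Over 55 results for single members and 712 alternatives, 656 kept direction and side of the threshold, 6 lost a call, 12 gained one and 38 turned direction. All 3 receptors, Vegfa and Vegfd kept their direction between regions under every alternative run, and their calls too, except Kdr under pan-endothelial scaling. Between KO and WT no alternative called a member. The number of genes called in EC (0) was 34 with DESeq2, 2 without a filter, 180 with the replicate block, 17 with pan-endothelial scaling and 0 to 1 with a library left out. In MN (2) it was 4, 4, 6 and 0 to 1 under DESeq2, no filter, the block and left-out libraries, and 0 with a filter at 5 CPM. For the difference between cell types (0) DESeq2 gave 1 and left-out libraries 0 to 1. Between regions (7755) pan-endothelial scaling gave 12700. In the dissection test (98) the counts were 1321 with DESeq2, 305 with ratios to the median library, 1780 without a filter, 236 at 5 CPM and 0 to 1190 with a library left out, and members called were 1 without a filter and 0 to 1 with a library left out. Calls of the ratios were lost where the smallest p the test can give was above 0.05. Sign flips of the 5 batch differences (replicate block) gave 0.88, 0.40, 1.28 and 0.57 for the Flt1 to Kdr ratio and the relative Kdr, Flt1 and Flt4 (exact p = 0.0625, the smallest possible), and batches 1 to 3 gave 0.82, 0.47, 1.28 and 0.58 (exact p = 0.1, likewise the smallest).

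Values that turned direction were all uncalled in the original test. For KO over WT in EC, left-out libraries gave -0.28 to 0.37 for Flt1, -0.082 to 0.17 for Vegfb, -0.28 to 0.18 for Vegfc, -0.60 to 0.033 for Flt4 and -0.15 to 0.013 for Vegfa, and relative Flt4 ran from -0.051 to 0.15. Flt1 was -0.010 without a filter, and pan-endothelial scaling gave 0.29 for Vegfa, 0.32 for Vegfc, 0.12 for Vegfd and 0.035 for Flt4. Under that scaling the median over all genes was 0.36. In MN the ranges were -0.13 to 0.034 for Vegfb, -0.25 to 0.59 for Flt1 and -0.38 to 0.65 for Kdr. For the difference between cell types they were -0.067 to 0.20 for Vegfb, -0.59 to 1.31 for Vegfd, -0.60 to 0.26 for Flt1 and -0.39 to 0.0033 for Pgf, and the block gave 0.19 for Vegfd and 0.00022 for Flt1. In the dissection test they were -0.10 to 0.38 for Flt1, -0.19 to 0.38 for Flt4 and -0.26 to 0.22 for Pgf. Pgf between regions was -0.75 under pan-endothelial scaling, where the median over all genes was -1.09. The cause of these turns was not tested. Vegfd in MN and in spinal EC rests on at most 14 counts a library, which limits its precision.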
